A study of Caenorhabditis elegans with 2 samples.

Results

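Peaks of NHR-19, a nuclear hormone receptor of the nematode Caenorhabditis elegans, were examined at the homeobox genes. These were the protein-coding genes with a ceh- symbol and 16 further named genes, from lin-39 and mab-5 to lim-7 and cog-1. They numbered 79 of the 19973 protein-coding genes on the nuclear chromosomes of the Ensembl annotation (WBcel235, the same assembly as ce11). The rule used gene names and no measured value, but it was set with earlier results of these data known.

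Chromatin was immunoprecipitated from whole L1 larvae of strain OP791 that were starved after bleaching, with an age of 6 h, in 2 biological replicates of a single group. The larvae carried the transgene wgIs791, nhr-19 tagged with TY1, EGFP and 3xFLAG on a fosmid clone beside unc-119(+), in an unc-119(tm4063) background. The description names an anti-GFP antibody, while another label field names nhr-19, and a control experiment is listed only as possible. No untagged strain, second stage or fed culture was analysed here, so peaks that do not depend on NHR-19 were not set apart.

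Homeobox proteins act at many levels of animal development. HOX proteins assign positions along the body axis, TALE proteins such as the PBX family bind DNA together with them, and many LIM, POU and paired-like homeodomain proteins specify single neuron types in the worm. CUT-class proteins of the ONECUT family act broadly, and in C. elegans neurons they regulate genes shared by most neurons. Peak signal from whole larvae cannot tell a peak present in few cells from a weak peak present in many.

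A site below is a peak of the list that passed the authors' threshold on the irreproducible discovery rate (IDR, the expected share of peaks that do not repeat) across the true replicates. That list held 4530 sites after summits within 200 bp were merged. Their signal, the value the authors deposited for each peak, ran from 43.6 to 13097 with a median of 267.8, and was comparable within a list only. A candidate is any of the 20609 peaks of the longer ranked list, passing or not. A promoter window ran from 1000 bp upstream to 500 bp downstream of the annotated 5′ end, and an intron site had its summit in an intron outside that window.

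Sites were found at 7 homeobox genes. In the promoter windows of ceh-38, ceh-39, ceh-20, ceh-13 and ceh-92 lay 1 site each, which is 6.33% of the 79 genes, beside 14.1% of all protein-coding genes. Introns of lin-39 and ceh-18 held 1 site each, which is 2.53% of the genes, beside 3.8% of all protein-coding genes. Together, 8.86% of homeobox genes had a site in either place, beside 16.9% of all protein-coding genes. In the replicates' own lists, 4 homeobox genes had a promoter site in replicate 1, beside 12.3% of all genes, and 5 had one in replicate 2, beside 12.5% of all genes. The median signal of the 7 sites was 275.3, close to the 286.3 of all 3182 promoter or intron sites.

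The strongest site belonged to ceh-38 (WBGene00000459), a ONECUT gene of the CUT class. Its peak on chromosome II, 6951429 to 6951736, had a signal of 1144, rank 347 of all sites, with 92.3% of sites weaker. It had 649.8 in replicate 1 and 510.2 in replicate 2, and stood above 91.5% and 90.1% of the sites of those lists. The summit fell in a 5′ UTR exon of ceh-38, 52 bp downstream of the gene's 5′ end and 41 bp upstream of the nearest of its 11 annotated transcript starts. The same summit lay 278 bp upstream of the 5′ end of malt-1, the MALT1 paracaspase gene, so the window was shared by the pair.

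Second was ceh-39 (WBGene00000460), another ONECUT gene, which in the early embryo also takes part in counting X chromosomes. The peak, on chromosome X at 1856224 to 1856466, had 539.4 in the true-replicate list, 285.8 in replicate 1 and 261.6 in replicate 2. Its summit was intergenic and 181 bp upstream of the 5′ end. The gene is the first of a tandem row on the minus strand, followed by T26C11.9 after 24 bp, by ceh-21 after a further 101 bp and by ceh-41 after a further 103 bp. In the promoter window of ceh-21, also a ONECUT gene, the strongest candidate had 131.1 and an IDR of 0.0282, so it did not pass. Its summit lay 987 bp upstream of ceh-21, within T26C11.9. The third ONECUT gene of the row, ceh-41, had neither a site nor a candidate in its window or introns. The site stood upstream of the whole row, and no other site lay in the windows of its 2 further ONECUT genes.

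The PBX-type TALE gene ceh-20 (WBGene00000443), whose product is a partner of HOX proteins, had an intergenic site 791 bp upstream of its 5′ end, on chromosome III at 6978893 to 6979292. Its signal was 352.6, with 197.0 in replicate 1 and 170.3 in replicate 2. Of the other PBX-type genes, ceh-40 and ceh-60 had neither a site nor a candidate.

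The HOX gene lin-39 (WBGene00003024), which acts in the mid-body and in the vulval precursor cells, had a site in intron 1 of 5, a stretch of 1784 bp, on chromosome III at 7534618 to 7535017. Signal was 275.3, with 152.4 in replicate 1 and 126.3 in replicate 2. The summit lay 1814 bp downstream of the 5′ end of the gene but 13 bp upstream of the start of the shorter of its 2 annotated transcripts. It is thus an intron site for the long transcript and a promoter-proximal site for the short one. At the gene's own 5′ end the candidate of most signal reached 64.9 (IDR 0.723) and did not pass.

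Its neighbour ceh-13 (WBGene00000437), the HOX gene related to labial of Drosophila, had an intergenic site 862 bp upstream of its 5′ end, at 7554598 to 7554997 of the same chromosome. Signal was 195.2, with 93.4 in replicate 1 and 76.2 in replicate 2, which was above 10.4% and 6.28% of the sites of those lists. It passed in both replicates but near the weak end of each.

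The POU gene ceh-18 (WBGene00000441), known for its role in the gonadal sheath cells that control oocyte maturation, had a site in intron 2 of 8, which is 3517 bp long, on chromosome X at 3853909 to 3854308. Signal was 251.4, with 140.2 in replicate 1 and 100.3 in replicate 2. The summit lay 3688 bp downstream of the gene's 5′ end and 1407 bp upstream of the nearest transcript start. An annotated non-coding RNA gene, ZC64.5, lay within 500 bp, as did T26C11.10 at the ceh-39 site.

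The weakest was the site of ceh-92 (WBGene00013431), on chromosome III at 11580491 to 11580890. It had 174.2 in the true-replicate list, 75.6 at an IDR of 0.421 in replicate 1, where it did not pass, and 100.9 in replicate 2, where it passed. Its summit lay 909 bp upstream of ceh-92 and 213 bp upstream of the nearer 5′ end of Y66D12A.7. Of the 7 sites it was the single one missing from a replicate's thresholded list and the single one nearer to another gene's 5′ end.

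**Figure D1:**
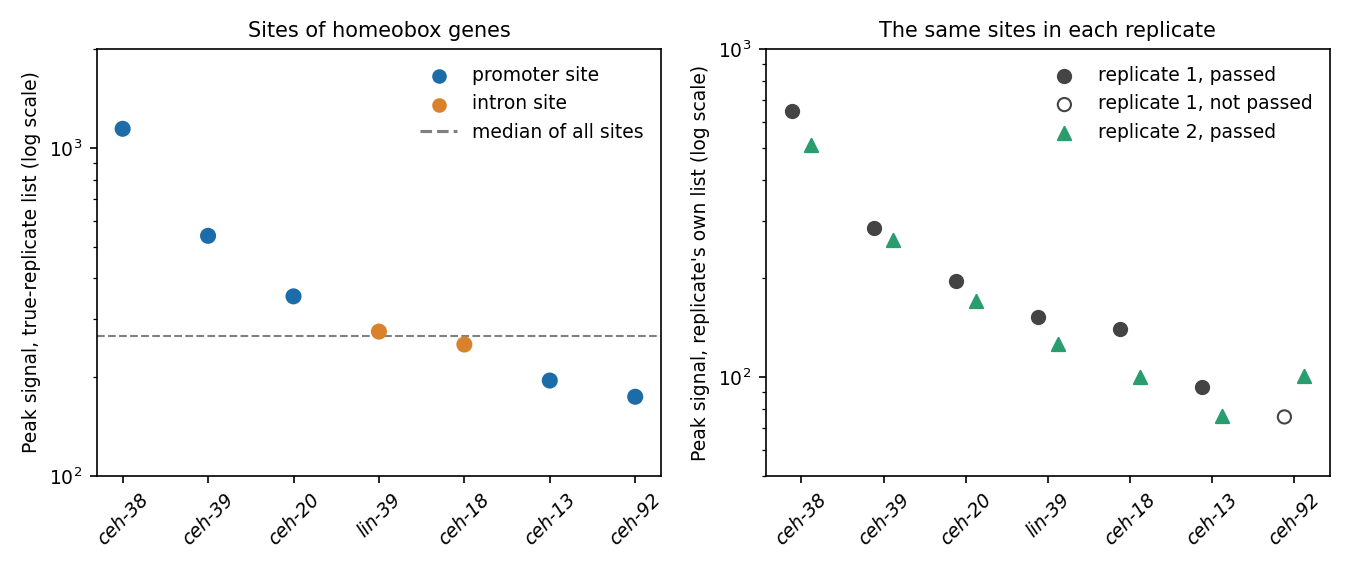
Peak signal of the 7 homeobox sites. Left, in the true-replicate list, on a log axis, with promoter sites in blue, intron sites in orange and the median of all 4530 sites (267.8) as a dashed line. Right, in the list of each replicate, on a log axis, with an open mark where the peak did not pass. From ceh-38 to ceh-13 the order is the same in both replicates, and ceh-92 is the single site with an open mark.

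The sequences under the summits are shown so that the words counted at these sites can be read in place. Each is read from the WBcel235 genome on the gene's strand, within 50 bp of the summit, without annotated UTR, and capitals mark matches on either strand to the 6 words searched. These were the GAGA repeat GAGAGA, the E-box CACGTG, the CG-rich word CCGCCC, the GATA-type word TGATAA, the homeodomain-type word TAATTA and the nuclear receptor half-site AGGTCA. The windows are chrX:1856303-1856403 (minus), chrIII:6979043-6979143 (plus), chrIII:7534806-7534868 (minus), chrX:3854059-3854159 (minus), chrIII:7554748-7554848 (plus) and chrIII:11580641-11580693 (plus), in the order below. The window of ceh-38 lies in its 5′ UTR and is not printed.
ceh-39: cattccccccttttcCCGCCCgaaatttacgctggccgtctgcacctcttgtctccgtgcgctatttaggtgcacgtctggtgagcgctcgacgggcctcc
ceh-20: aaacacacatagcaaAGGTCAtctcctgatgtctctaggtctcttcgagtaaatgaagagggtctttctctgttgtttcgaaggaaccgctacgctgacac
lin-39: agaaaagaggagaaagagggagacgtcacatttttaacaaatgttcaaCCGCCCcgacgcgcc
ceh-18: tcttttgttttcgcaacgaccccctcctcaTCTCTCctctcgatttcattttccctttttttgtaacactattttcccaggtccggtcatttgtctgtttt
ceh-13: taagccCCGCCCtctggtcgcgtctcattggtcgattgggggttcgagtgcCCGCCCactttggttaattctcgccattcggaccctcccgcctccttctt
ceh-92: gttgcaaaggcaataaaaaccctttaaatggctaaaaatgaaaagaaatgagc

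The CG-rich word CCGCCC lay within 50 bp of the summit at ceh-39, lin-39 and ceh-13, and it lay there 2 times at ceh-13. It was present at 3 of the 7 sites, beside 5.63% of all 4530 sites. The half-site AGGTCA was present at ceh-20, beside 3.89% of all sites. The GAGA repeat was present at ceh-18, beside 25.9% of all sites, and the GATA-type word TGATAA at ceh-92, beside 8.87% of all sites. That match at ceh-92 is not within the printed stretch, which stops where a 3′ UTR of the neighbouring gene Y66D12A.6 begins. The E-box CACGTG and the homeodomain-type word TAATTA were at none of the 7 sites, beside 7.75% and 1.61% of all sites. At ceh-38 no searched word was found. GC content was highest at ceh-39 (61.4%) and ceh-13 (60.4%) and lowest at ceh-92 (34.7%), beside a median of 45.5% over all sites. These are matches of letters, in windows whose GC content also differs.

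The replicates' signals come from separate lists, so their ratio is set only beside the same ratio at other sites. Signal in replicate 1 over signal in replicate 2 ran from 1.09 at ceh-39 to 1.40 at ceh-18 for 6 of the sites and was 0.75 at ceh-92. Over the 4440 sites of the whole list found in both ranked lists, the median ratio was 1.14, and the 10th and 90th percentiles were 0.86 and 1.53. The ratio at ceh-92 lay under that range. Of the 7 sites, 6 were in the thresholded lists of both replicates, beside 67.1% of all sites. In the list from pooled pseudoreplicates were 7 of them, but the share of all sites found there was not computed. That count is therefore given without a comparison.

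A candidate, passing or not, lay in the promoter window of 26 homeobox genes (32.9%, beside 33.5% of all protein-coding genes). Of those 26, the 5 with a site made 19.2%, beside 42% of all genes with a candidate. The other 21 had a candidate but no site in the window, which is 26.6% of the 79 homeobox genes, beside 19.4% of all protein-coding genes. Over promoter windows and introns, 59 candidates did not pass, with signals from 43.9 to 131.1, a median of 64.2, and an IDR of 0.723 for 29 of them. The median of all failing candidates of the ranked list was 65.7.

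Among members without a site, the promoter candidate of highest signal was that of ceh-21, given above. It was followed by ceh-43, a Distal-less gene (130.4, IDR 0.0853), whose candidate lay 359 bp downstream of the 5′ end and had 75.2 in replicate 1 and 46.7 in replicate 2. The candidate 47 bp upstream of ceh-83 had 126.0 at an IDR of 0.0104, the smallest IDR of these, with 74.3 in replicate 1 and 53.7 in replicate 2. For the paired-like gene unc-42, which specifies command interneurons, the candidate 135 bp upstream had 111.7 at an IDR of 0.0182, and for ceh-100 the value was 96.8 at 0.218. These were in the thresholded list of neither replicate.

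**Figure D2:**
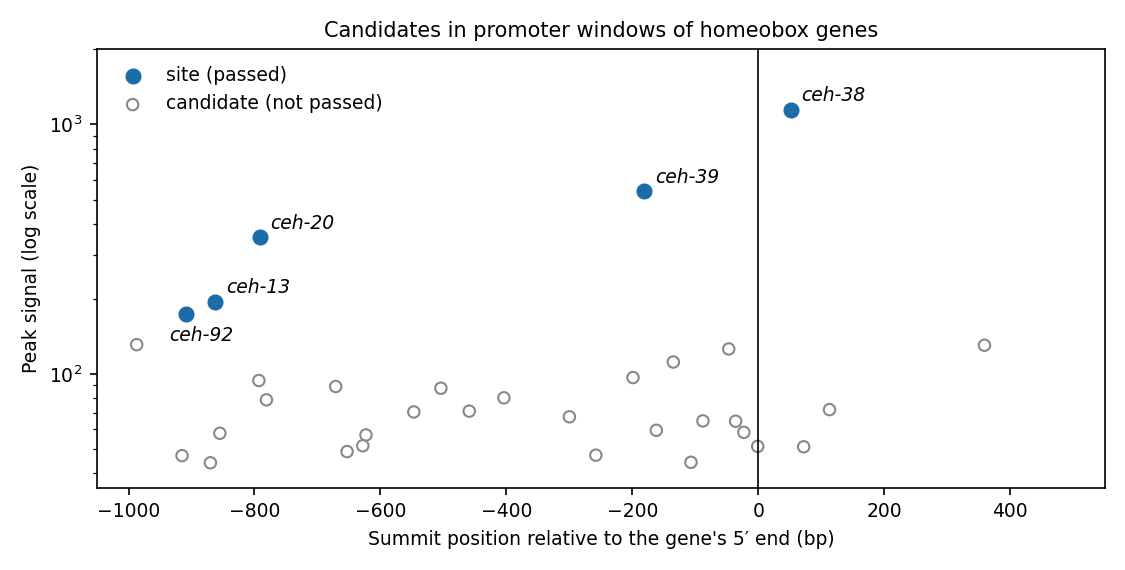
Every candidate in the promoter windows of the 79 homeobox genes, by distance of the summit from the 5′ end in bp and by peak signal on a log axis. Filled points are the 5 sites and open points the 28 candidates that did not pass. The 3 weaker sites (ceh-20, ceh-13 and ceh-92) lie over 500 bp upstream, and the open points are spread over most of the window.

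The HOX genes of C. elegans lie on chromosome III in 3 pairs. Counts in the regions of these pairs are given without a density over the genome, which was not computed. In the region of ceh-13 and lin-39, taken with 2 kb on each side (33.4 kb), there were 3 sites and 13 candidates that did not pass. Beside the sites of lin-39 and ceh-13 described above, another was in the 19027 bp between the genes, 6483 bp upstream of ceh-13 and 12545 bp upstream of lin-39 (7548977 to 7549376). Its signal was 134.1 at an IDR of 0.00486, with 64.7 in replicate 1 and 71.2 in replicate 2, and it passed in neither replicate alone. The strongest candidate there that did not pass had 124.7 at an IDR of 0.0109.

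In the region of mab-5 and egl-5, HOX genes of the posterior body and the male tail, 1 site was found in 44.3 kb. It was intergenic, 7269 bp upstream of mab-5 at 7790523 to 7790922, nearer to the 5′ end of cyk-7 at 4686 bp, and had a signal of 199.0, with 116.5 in replicate 1, where it passed, and 79.8 in replicate 2, where it did not. The strongest of 3 intron candidates of mab-5, singled out after its value was seen, had 108.2 at an IDR of 0.0633. It had 58.9 in replicate 2 and less than that in replicate 1. The next had 102.8 at an IDR of 0.321. The posterior pair php-3 and nob-1 had no site in 14.1 kb and 6 candidates, the strongest with 89.1. The caudal gene pal-1, which patterns the posterior embryo, and the MNX-type gene ceh-12 had neither a site nor a candidate. The even-skipped gene vab-7 had 2 intron candidates, the stronger with 71.6.

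**Figure D3:**
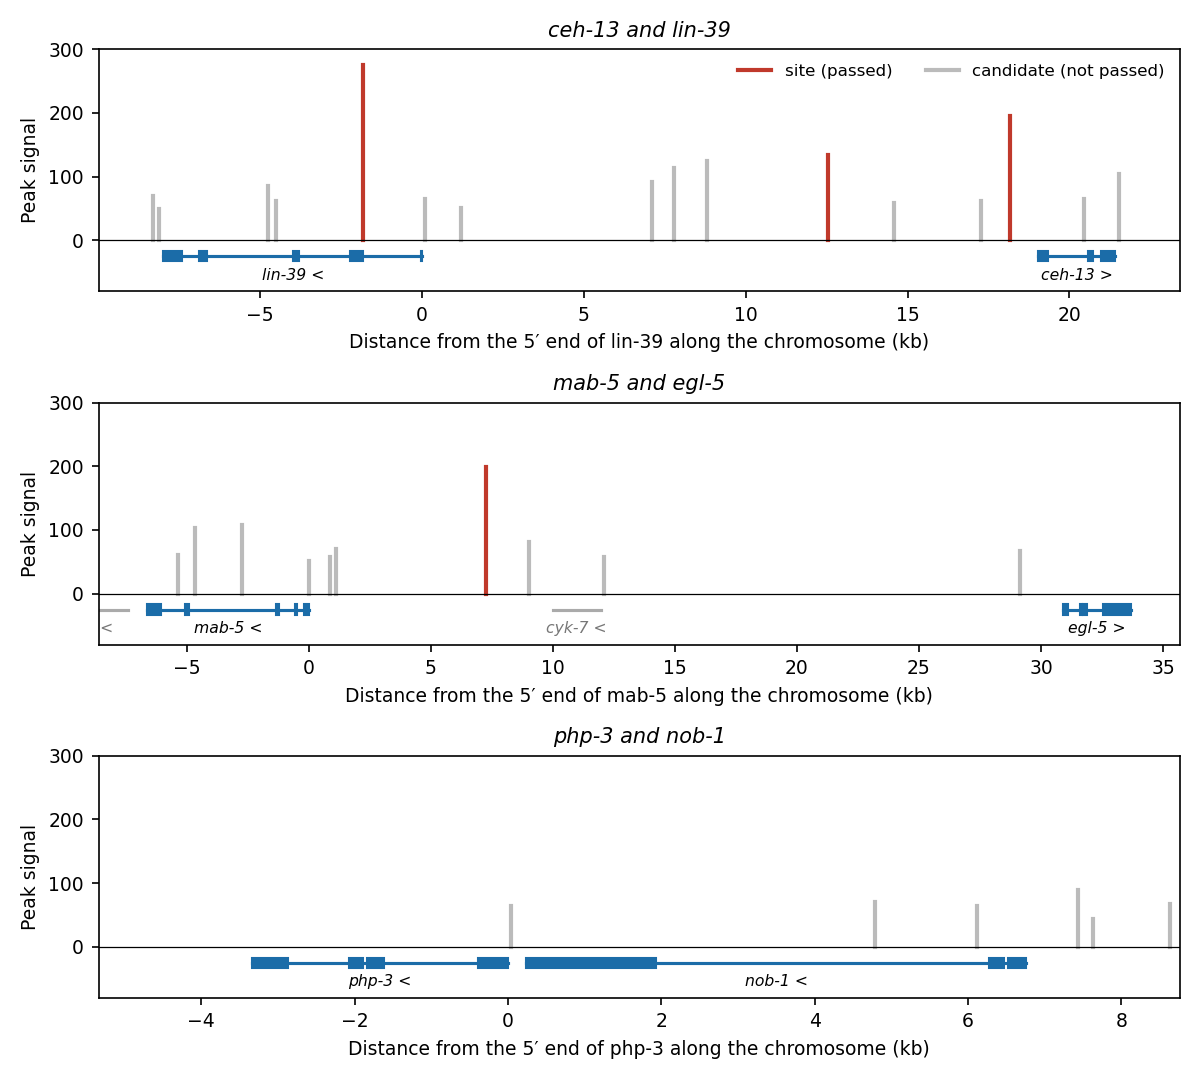
Peaks around the 3 HOX pairs. The horizontal axis is the distance in kb along the chromosome from the 5′ end of lin-39, mab-5 or php-3, and the height of a line is the peak signal, red for sites and grey for candidates that did not pass. Boxes are exons and the arrowhead after a name gives the strand. Of the 4 sites, 3 lie at or between ceh-13 and lin-39, 1 lies upstream of mab-5, and the php-3 and nob-1 region has 0.

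By class, sites were found at 2 of 6 CUT genes, 2 of 9 HOX and extended HOX genes, 1 of 3 TALE genes, 1 of 3 POU genes and 1 of 23 other or divergent genes, beside 16.9% of all protein-coding genes with a site in either place. Classes of so few genes are only counted, and no difference from that share is read from them. The NK-like, paired-like, LIM and sine oculis classes together hold 35 genes, and 0 of them had a site, with a candidate at 17. They include genes known as regulators of neuron identity, among them unc-42 with the candidate given above, ttx-3 of the AIY interneuron, mec-3 of touch neurons, and lim-4, lim-6, ceh-10, ceh-14, ceh-36 and unc-4, which are named for that role and not as a tested group. The POU gene unc-86, another regulator of neuron identity, had neither a site nor a candidate. The strongest promoter candidate was 47.1 for ttx-3 and 48.9 for mec-3, each at an IDR of 0.723. An intron candidate of ttx-3 was stronger, with 71.5 at an IDR of 0.382. The intron candidate of lim-6 had 59.0, that of ceh-10 had 58.9, and lim-4, ceh-14, ceh-36 and unc-4 had none in either place. In the NK-like class, the NK2 gene ceh-22 of the pharyngeal muscle had an intron candidate of 86.4 at an IDR of 0.115, and the engrailed gene ceh-16 had none. In all, 30 members had a candidate but no site, and 42 had neither. The share of all protein-coding genes with a candidate in either place was not computed. These counts and the 17 above are therefore given without that comparison.

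**Figure D4:**
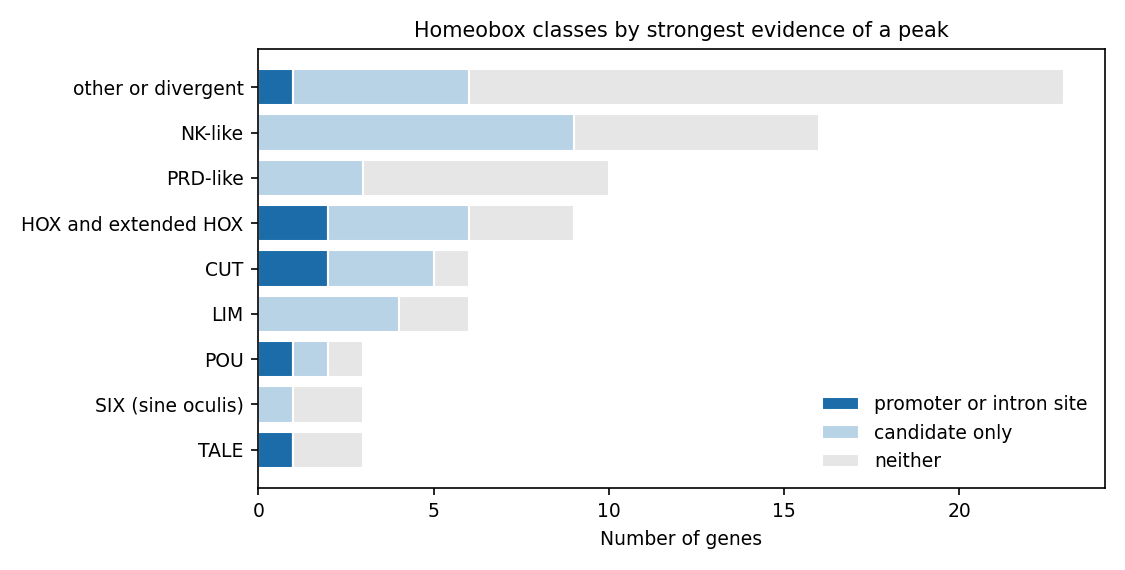
Number of homeobox genes of each class with a promoter or intron site (dark blue), with a candidate only (light blue) and with neither (grey). The CUT class has sites at 2 of 6 genes, beside 16.9% of all protein-coding genes, and the NK-like, PRD-like, LIM and sine oculis bars hold no dark blue.

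Counted per length, homeobox genes had fewer sites than the genome's genes. Their promoter windows covered 119 kb with 42.2 sites per Mb, beside 83.5 per Mb over the windows of all protein-coding genes. Their introns covered 193 kb with 10.3 intron sites per Mb, beside 31.7 per Mb for all protein-coding genes. The median homeobox gene had 1533 bp of intron and the median gene 722 bp. In both lists, intron length included stretches inside a gene's own promoter window, where sites were counted as promoter sites only. The intron value of 10.3 per Mb rests on 2 sites. For 22 homeobox genes outside the selection, described below, it was 29.9 per Mb from 3 sites, and they had 0 promoter sites. In the central 50% of the autosomes, 3 of 39 homeobox genes (7.69%) had a promoter site, beside 16.2% of all genes there. On the autosome arms it was 1 of 19 (5.26%), beside 11.8%, and on the X chromosome 1 of 21 (4.76%), beside 13%. On chromosome III it was 3 of 16 (18.8%), beside 20.6% of all genes of that chromosome. On chromosome II it was 1 of 15 (6.67%), beside 13.8%. Chromosomes I, IV and V had no promoter site at 9, 5 and 13 homeobox genes, beside 17.5%, 12.6% and 10.3% of all genes there. No test was made of these differences, since the genes were chosen with earlier results of these data known.

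Shares in other transcription factor families are given beside those of all protein-coding genes, 14.1% with a promoter site and 3.8% with an intron site. Of 268 nhr- genes besides nhr-19, 36 had a promoter site (13.4%) and 22 an intron site (8.21%). Of 50 hlh- and ztf- genes, 7 had a promoter site (14%) and 4 an intron site (8%). The promoter shares of both lists were near that of all genes. Among 22 homeobox genes outside the selection, from alr-1 to zfh-2, 0 had a promoter site, 9 had a candidate in the window and 3 had an intron site. These 3 were weak. The Meis gene unc-62, whose product pairs with CEH-20 and HOX proteins, had 152.7, with 91.7 in replicate 1, where it passed, and 63.4 in replicate 2, where it did not. The Otx gene ttx-1, of the thermosensory AFD neuron, had 140.7, and the Prospero gene pros-1, of glia and excretory cells, had 139.1, and both passed in neither replicate alone.

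**Figure D5:**
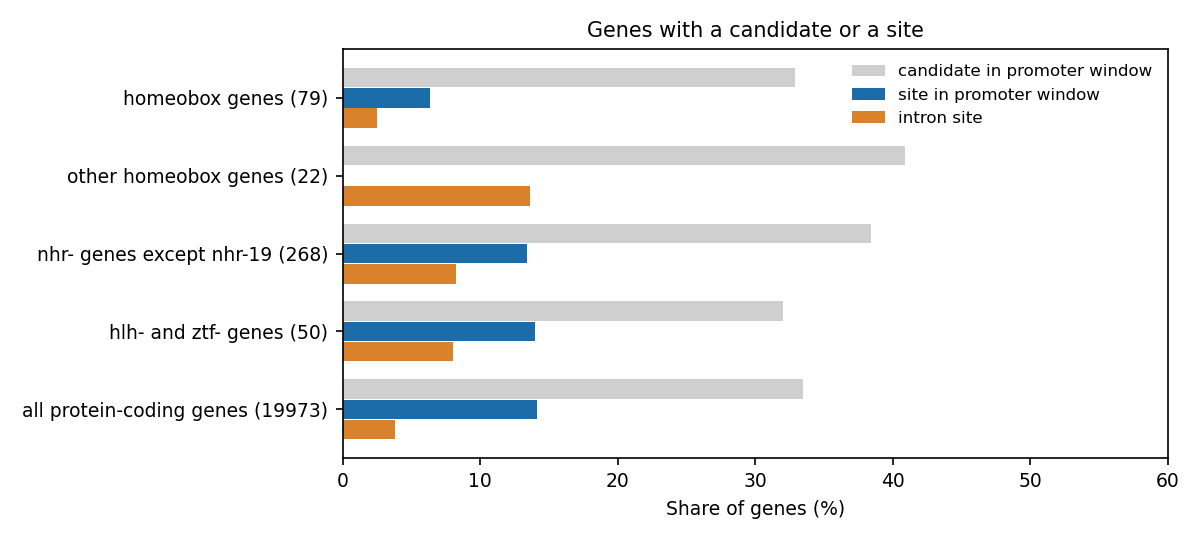
Share of genes in percent with a candidate in the promoter window (grey), a site there (blue) and an intron site (orange), with the number of genes in brackets. Homeobox genes have a candidate share of 32.9% beside 33.5% for all protein-coding genes, and a promoter site share of 6.33% beside 14.1%.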

How the data were processed

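Peak lists on ce11 were used as deposited, per the labels. The signal of each peak is the value the authors deposited, and ranked peaks come with a deposited −log10 IDR, capped so that 1e-05 is the smallest IDR. Of peak caller and aligner, nothing was given in the sources used here. The lists hold no read counts, so depth is unknown. In the pooled ranked lists, 16 columns on single replicates carry no sample name and were not used. Replicate values are the strongest peak of each replicate's own ranked list within 200 bp of the summit.

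Summits were assigned to the gene records of Ensembl release 115 with Python 3.11.15, pandas 2.3.3 and numpy 2.4.6, and the assignment was tested on simulated data. With 1 group there was no comparison between groups and no test. Members, classes and words were chosen with earlier results of these data known. Every member with a site is named, and of the others the 5 with the strongest promoter candidates. Further members without a site are named by class, role or place, and not by that rule. One ceh- name of the class lists, ceh-44, was not a gene symbol in this annotation. Class names follow common usage and roles are background. Alternatives are given in the closing section.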

Additional observations from a re-analysis of the deposited data

How the results depend on the processing

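The number of homeobox genes with a promoter site was 5 in the list as used, beside 14.1% of all protein-coding genes. At an IDR of 0.05 it was 8, where ceh-21, ceh-83 and unc-42 were added, beside 15.7% of all genes. It was 3 in the strongest 50% of sites, beside 8.69% of all genes. With a window of 500 bp upstream to 250 bp downstream it was 2, beside 11.1%, and ceh-20, ceh-13 and ceh-92 were lost. The number with an intron site was 2 as used, beside 3.8% of all genes, and 1 in the strongest 50%, beside 1.96%. With the 5′ ends of every transcript it was 1, beside 2.93%, and lin-39 moved to the promoter count. Genes with either, and distinct sites, were 7 as used, and both were 4 in the strongest 50% and 4 with the narrow window. Over all genes, the share with either was 16.9% as used, 10.3% in the strongest 50% and 14.4% with the narrow window. Leaving out a replicate gave 4 to 5 genes with a promoter site, 2 to 2 with an intron site, 6 to 7 with either and 7 to 7 distinct sites. The shares of all genes were then 12.3% to 12.5% for promoter sites, 3.13% to 3.15% for intron sites and 14.6% to 14.8% for either. Without replicate 2 the site of ceh-92 was lost and ceh-18 had 2 sites in place of 1, so the 7 were not the same sites. With each site given to the nearest 5′ end ceh-92 was also lost, and the pooled list added ceh-83 and mab-5. In the remaining settings these counts were within 1.5 times of those used. The count of sites in both replicates was 6 at 100 and 500 bp, beside 66.6% and 67.8% of all sites. In the ranked lists it was 7, beside 98% of all sites. No paired analysis was possible because there is 1 group. With depth unknown, a site too weak to pass cannot be told from no site.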

Other observations

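Beyond windows and introns, 9 further sites had a homeobox gene as the nearest protein-coding 5′ end, at 6 genes. The matching counts over all protein-coding genes were not computed, so these are given without that comparison. The strongest, with a signal of 656.3, 379.4 in replicate 1 and 284.0 in replicate 2, lay 1755 bp upstream of the Vax-type gene ceh-5, in an exon of eat-16, which encodes a regulator of G protein signalling. A site 2115 bp upstream of the ONECUT gene ceh-48 (chromosome IV, 6809793 to 6810192) was intergenic, with 228.5, 108.3 in replicate 1 and 114.7 in replicate 2, and passed in both. The word GAGAGA or its reverse complement matched at 8 overlapping positions within 50 bp of an intergenic summit 6880 bp upstream of ceh-43, where the signal was 171.1 and the peak passed in replicate 2, with 95.2, but not in replicate 1, with 77.8. An intergenic site 3671 bp upstream of ceh-18 had 144.3 and passed in neither replicate alone. Of the rest, 1 is the site between lin-39 and ceh-13 described above, and 4, with 58.6 to 171.7, lay in emb-4, over 4 kb downstream of the 5′ end of ceh-51.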
